A study of Mus musculus with 5 samples.

Results

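MicroRNA genes are represented on this array by probe sets that carry a microRNA gene symbol, and they were followed here through precipitates of the survival of motor neuron protein (SMN). Members were the probe sets whose only gene symbol begins with Mir or Mirlet followed by a digit, and the brightest probe set over the 5 arrays stood for each gene. This gave 305 probe sets of 300 genes, out of 28187 probe sets and 19937 genes with a probe set of their own. Of the 300 genes, 296 are microRNA genes and 4 are long host transcripts that the name pattern also takes (Mir100hg, Mir99ahg, Mir17hg and Mir670hg). A further 37 probe sets name a microRNA together with another gene and were left out. Of the 300 genes, 100 lay above the array background as defined below, 200 did not, and 0 differed between the precipitates past the adjusted threshold.

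The arrays measured RNA from anti-FLAG M2 magnetic bead precipitates of NSC-34 cells, a mouse motor neuron-like hybrid line of neuroblastoma and spinal cord cells. FLAG-SMN IP (3 arrays) came from cells with a 3XFLAG-flSMN construct, and control IP (2 arrays) from cells with no FLAG construct, which measures RNA held by the beads without a tagged protein. Cells of both groups were differentiated in 1% serum (for 48 hours in one protocol and 3 days in another), received doxycycline (3 µg/ml, 3 days) and an ultraviolet dose of 400 mJ/cm2 ahead of the precipitation. From 300 to 500 ng of precipitated RNA entered labelling, and RNA of the lysates was not analysed here.

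A microRNA is cut from a long primary transcript as a hairpin by Drosha with Dgcr8, exported by Xpo5, trimmed by Dicer1 and loaded into an Argonaute protein, where bases 2 to 8 (the seed) pair with target RNAs. The SMN complex has a known link to this pathway, because its members Gemin3 (gene Ddx20) and Gemin4 were found with Argonaute 2 in human cells. Neither the labels nor the files say whether a probe set reads the primary transcript, the hairpin or the mature form. In precipitates, more RNA per particle and more particles cannot be told apart.

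Mature sequences of 7 genes described below, among them those with the smallest unadjusted p and the brightest, are shown first, 5′ to 3′ with the seed in capitals, from RefSeq on build GRCm38.p6. Mir505 lies on the minus strand of chromosome X, with its 3p arm at chrX:60394416-60394437. Mir218-1 and Mir218-2 lie on the plus strands of chromosomes 5 and 11, at chr5:48223966-48223986 and chr11:35616840-35616860 for the 5p arm, and give the same 5p sequence. Mir677 (5p arm at chr10:128085291-128085312), Mir15b (5p arm at chr3:69009775-69009796), Mir99b (5p arm at chr17:17830194-17830215) and Mir6516 (5p arm at chr11:117077370-117077391) lie on plus strands.
mmu-miR-505-3p: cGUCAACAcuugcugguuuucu
mmu-miR-505-5p: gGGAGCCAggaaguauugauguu
mmu-miR-218-5p: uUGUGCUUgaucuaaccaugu
mmu-miR-677-5p: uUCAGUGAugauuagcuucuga
mmu-miR-15b-5p: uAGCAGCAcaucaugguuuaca
mmu-miR-99b-5p: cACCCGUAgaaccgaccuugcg
mmu-miR-6516-5p: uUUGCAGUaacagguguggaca

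MicroRNA gene probe sets were dim as a class. Values are on the log2 scale, and the background of an array was taken as the median of its 6573 presumed control probe sets, which was 4.45, 4.33 and 4.30 in FLAG-SMN IP replicates 1 to 3 and 4.49 and 4.55 in control IP replicates 1 and 2. A gene counted as above background when it exceeded this median on all arrays of at least 1 group. By that rule 100 of 300 genes (33.3%) were above background, against 17992 of all 28187 probe sets (63.8%). A total of 77 genes exceeded background on all 5 arrays and 176 on none. The median microRNA gene stood at 3.66 on the log2 scale and the median probe set at 5.33. Array by array, 103 to 107 microRNA genes exceeded background, except in control IP replicate 2 with 85. With the 75th percentile of the presumed controls as a stricter background, 29 genes remained above it.

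**Figure D1:**
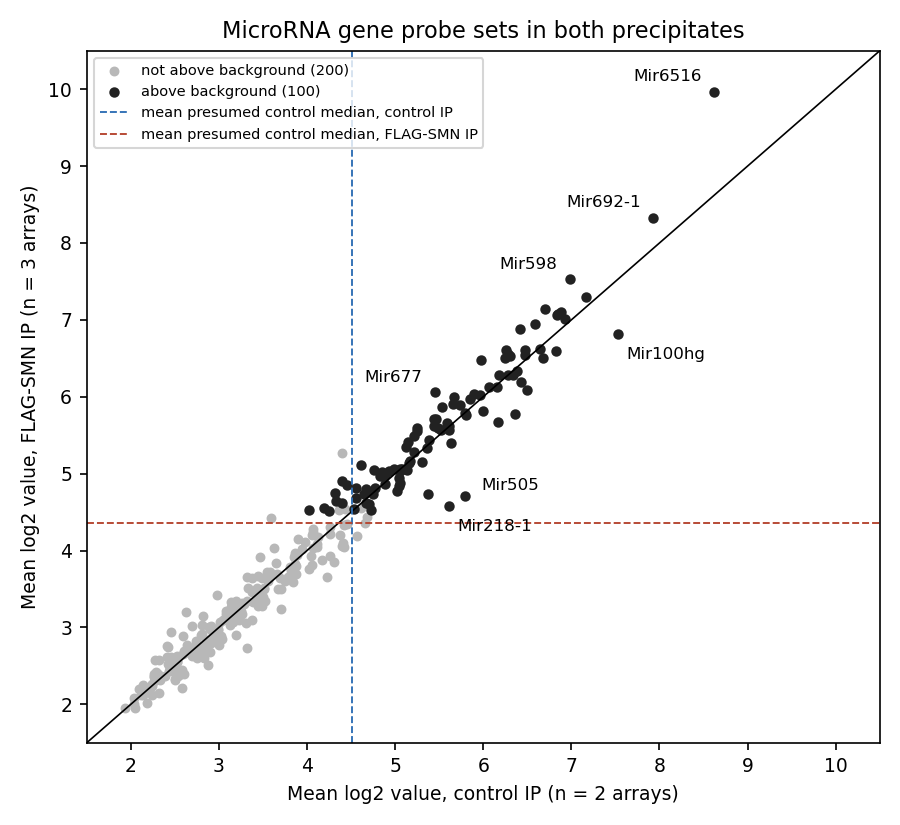
Mean log2 value of each of the 300 genes in FLAG-SMN IP (vertical axis, 3 arrays) against control IP (horizontal axis, 2 arrays), with the line of equal values and dashed lines at the mean background of each group. Most genes lie close to the line of equal values, 200 of them in grey as not above background, while Mir6516 is the brightest.

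The brightest member was Mir6516, which RefSeq places inside the small nucleolar RNA host gene Snhg20. Snhg20 had no probe set of its own, and whether the Mir6516 probe set reads other RNA of that gene was not tested. The log2 values of Mir6516 were 9.14, 10.27 and 10.51 in FLAG-SMN IP and 9.23 and 8.01 in control IP. FLAG-SMN IP replicate 1 lay below control IP replicate 1, so the groups overlapped. The means were 9.97 ± 0.73 (SD, n = 3) and 8.62 ± 0.86 (SD, n = 2), a log2 difference of 1.35 (SE 0.50; limma adjusted p = 0.41). This was the largest positive difference of any member, and leaving out 1 array at a time moved it between 0.74 (without control IP replicate 2) and 1.96 (without control IP replicate 1). Its hairpin, at chr11:117077348-117077457 on the plus strand, is shown with both mature arms in capitals because it is the brightest and because its GC content of 50.9% is below that of Mir692-1 (62.4%), Mir346 (65.3%), Mir341 (59.4%) and Mir667 (62.0%).
Mir6516 hairpin: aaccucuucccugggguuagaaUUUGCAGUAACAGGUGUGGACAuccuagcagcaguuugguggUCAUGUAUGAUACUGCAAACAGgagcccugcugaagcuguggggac

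The next brightest were Mir692-1, Mir598, Mir346, the host transcript Mir100hg, Mir341, Mir667 and Mir328. Mir692-1 was at 8.60, 8.31 and 8.08 in FLAG-SMN IP and 8.53 and 7.33 in control IP, with a log2 difference of 0.40 (limma adjusted p = 0.853). Mir598 was at 8.34, 7.07 and 7.17 against 7.15 and 6.82, a difference of 0.54 (limma adjusted p = 0.778) in which FLAG-SMN IP replicate 1 stood highest. Without that array the difference was 0.14. Mir346 gave 0.13, Mir341 0.21, Mir667 0.22 and Mir328 0.094 as log2 differences. At these 6 microRNA genes, Mir100hg aside, the groups overlapped and control IP replicate 2 had the lowest value of the 5 arrays.

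The array signal of a microRNA gene followed the base composition of its hairpin. Probe sequences were not analysed here, so hairpin GC content stands in for that of the probes, and signals of different probe sets are not comparable as amounts of RNA. RefSeq held a hairpin for 258 of the 296 microRNA genes (87.2%), with a GC content from 28.4% to 69.2%. Across these genes the mean log2 level was higher at higher hairpin GC content (Pearson r = 0.78, Spearman rho = 0.80, n = 258 genes on the same 5 arrays). This r describes genes that share arrays and normalization and are not independent replicates. Hairpin length followed the level less closely (Pearson r = 0.22). Of 39 genes with a GC content of 40% or less, 0 were above background and their median level was 2.44. Of 24 genes over 60%, all 24 were above background and their median level was 5.83. In the classes between, the share above background was 5.17%, 13.6%, 40.8% and 89.7%. The background was not matched to GC content, so counts above it in the gene groups below do not compare their amounts of RNA.

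The ends of that range were Mir212, a microRNA of neurons at 69.2% GC, and Mir190a at 28.4%. Mir212 had a mean log2 level of 6.47, with values of 6.73, 6.57 and 6.51 in FLAG-SMN IP and 6.66 and 5.86 in control IP. Mir190a had a mean level of 1.94 and the lowest of all members, with 1.81, 1.91 and 2.14 against 1.97 and 1.89. In neither gene did the groups separate. Their hairpins, at chr11:75173388-75173478 on the plus strand and chr9:67236660-67236726 on the minus strand, are shown with the mature arms in capitals to display the contrast in composition.
Mir212 hairpin: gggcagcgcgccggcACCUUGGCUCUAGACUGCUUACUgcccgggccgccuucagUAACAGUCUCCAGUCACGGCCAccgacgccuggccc
Mir190a hairpin: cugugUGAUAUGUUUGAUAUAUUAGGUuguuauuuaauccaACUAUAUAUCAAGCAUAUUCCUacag

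**Figure D2:**
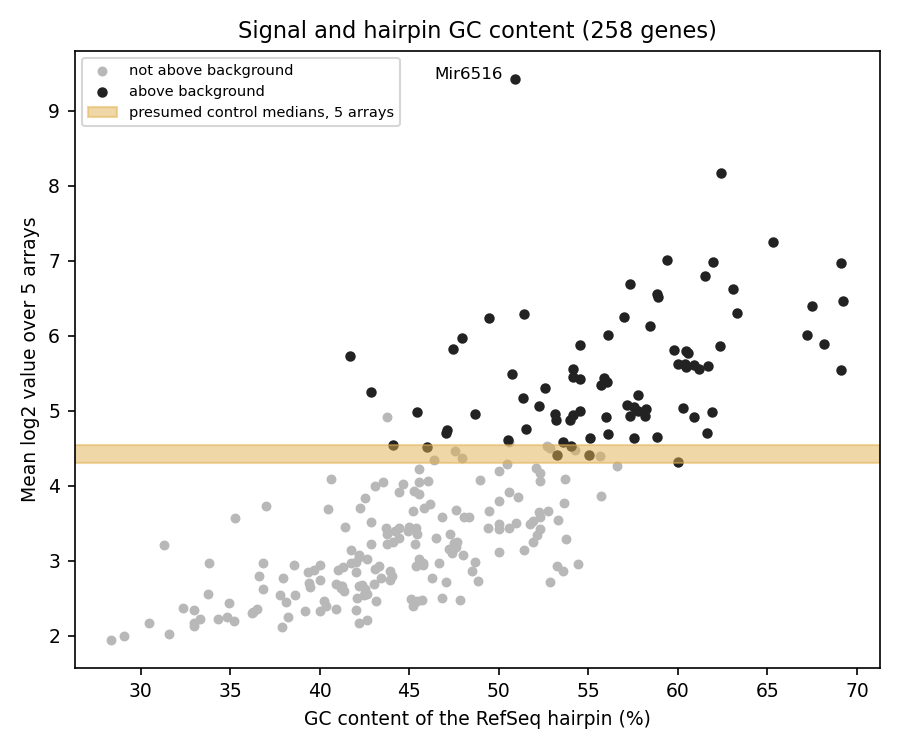
Mean log2 value over the 5 arrays (vertical axis) against the GC content of the RefSeq hairpin in percent (horizontal axis) for 258 microRNA genes, with the band of the 5 presumed control medians. Signal climbs with GC content, and Mir6516, at 50.9% GC and 9.43, lies far above genes of like composition.

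The arrays also differed from each other along GC content. The slope of level on hairpin GC was 1.42, 1.22 and 1.17 log2 units per 10% GC in FLAG-SMN IP replicates 1 to 3, and 1.33 and 1.14 in control IP replicates 1 and 2. In the class over 60% GC, control IP replicate 2 lay 0.49 below control IP replicate 1 (median difference -0.49), and FLAG-SMN IP replicate 1 lay 0.30 above the mean of replicates 2 and 3. In the class up to 40% GC the same medians were 0.036 and -0.13. Across the 258 genes, GC content had r = -0.47 with the first of these within-group differences and r = 0.47 with the second. The difference between FLAG-SMN IP and control IP followed GC content much less (r = 0.13). Over the 100 genes above background, control IP replicate 2 was below replicate 1 at 82 and FLAG-SMN IP replicate 1 above the mean of the other two at 82. Over all probe sets above background these shares were 47.4% and 55.3%. The part of these array differences in any single difference reported below was not tested.

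**Figure D3:**
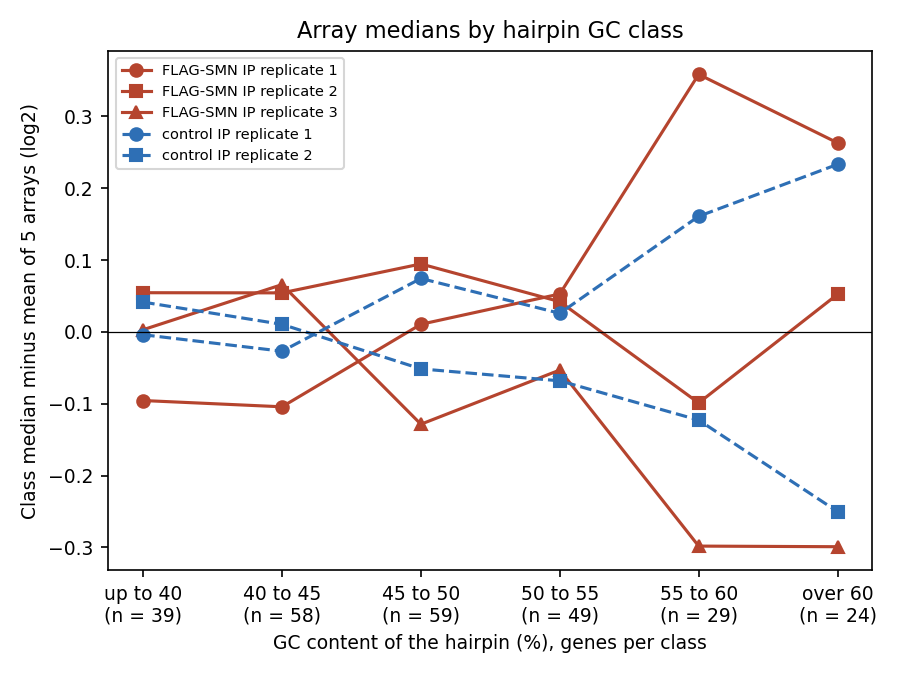
Median log2 value of the microRNA genes in each class of hairpin GC content, for each array, minus the mean of the 5 arrays in that class (vertical axis, log2 units). The arrays lie closer together up to 55% GC and spread apart above it, with FLAG-SMN IP replicate 1 and control IP replicate 1 high and FLAG-SMN IP replicate 3 and control IP replicate 2 low.

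FLAG-SMN IP was set against control IP. The groups come from different cells, so RNA brought down with the tagged protein and RNA more abundant in the cells with the construct cannot be told apart. For microRNA genes the comparison gave 0 members past the limma adjusted threshold of 0.05, where 9 of all 28187 probe sets (0.0319%) passed. The smallest adjusted p of any member was 0.201. Without adjustment, limma put 7 members higher and 4 lower at p under 0.05 (3.67% of 300), against 10.4% of all probe sets, with 4.14% higher and 6.31% lower. The groups did not overlap at 53 members (17.7%), 35 higher and 18 lower, against 25.3% of all probe sets (12.1% higher and 13.2% lower). Among the 200 members not above background 4 had an unadjusted p under 0.05 (2.00%), against 1.73% of the 10195 probe sets not above background. Among the 100 above background it was 7, against 15.4% of the 17992 probe sets above it. These shares were read as descriptions, because a gene that counted as above background through 1 group alone was selected on the values compared.

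The differences centred near 0. The median log2 difference over the 300 genes was 0.022, against 0.018 over all probe sets, with 165 positive and 135 negative. Among the 100 genes above background 65 were positive and 35 negative. Their median was 0.094, against 0.015 over all probe sets above background. Among the 77 genes above background on all 5 arrays 50 were positive and 27 negative, with a median of 0.090. The 200 genes not above background had 100 of each sign and a median of 0.0013. From the 10th to the 90th percentile the differences ran from -0.23 to 0.32 for microRNA genes and from -0.45 to 0.41 for all probe sets. For those not above background, which are a larger part of the microRNA genes, the same range was -0.24 to 0.21 for microRNA genes and -0.20 to 0.24 for all probe sets. Only Mir6516, Mir505 and Mir218-1 had differences of at least 2-fold in either direction, 3 of 300 genes, against 889 of 28187 probe sets.

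Mir505 had the smallest unadjusted p of all members. Its log2 values were 4.36, 5.07 and 4.69 in FLAG-SMN IP and 5.76 and 5.81 in control IP, and each FLAG-SMN array was below both control arrays. The means were 4.71 ± 0.35 (SD, n = 3) and 5.79 ± 0.035 (SD, n = 2), a log2 difference of -1.08 (SE 0.24; 95% confidence interval -1.66 to -0.51; limma adjusted p = 0.201), or 2.12-fold lower. In FLAG-SMN IP replicate 1 the value was below that array's background of 4.45, so the fold is uncertain. Mir505 and Mir218-1 counted as above background through the control arrays alone, so the filter itself favoured a negative difference. Leaving out 1 array at a time kept the difference between -1.26 and -0.91.

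Both copies of the miR-218 gene, whose microRNA is known as abundant in motor neurons, had negative differences. Mir218-1 was at 4.84, 4.25 and 4.64 in FLAG-SMN IP and 5.22 and 6.0 in control IP, with a log2 difference of -1.03 (SE 0.30; limma adjusted p = 0.283). Mir218-2 was at 5.48, 5.82 and 5.72 against 5.93 and 6.41, a difference of -0.49 (SE 0.22; limma adjusted p = 0.522). At both genes the groups did not overlap, and neither passed the threshold. Without control IP replicate 2 the differences were -0.64 and -0.25, and without control IP replicate 1 they were -1.42 and -0.73. In FLAG-SMN IP replicate 2 Mir218-1 lay below that array's background of 4.33.

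The other members lower in FLAG-SMN IP without overlap and above background were Mir100hg, Mir674 and Mir138-2. Mir100hg, the host transcript of Mir100, Mirlet7a-2 and Mir125b-1, was at 6.60, 7.06 and 6.79 against 7.42 and 7.64, a log2 difference of -0.71 (SE 0.21; limma adjusted p = 0.297). Mir674 was at 6.06, 6.05 and 6.15 against 6.31 and 6.68, a difference of -0.41 (limma adjusted p = 0.545), or -0.22 without control IP replicate 2. Mir138-2 differed by -0.16, less than its SE of 0.17.

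On the higher side Mir677 had little spread within groups. Its log2 values were 6.07, 5.99 and 6.12 in FLAG-SMN IP and 5.55 and 5.36 in control IP, means of 6.06 ± 0.070 (SD, n = 3) and 5.45 ± 0.13 (SD, n = 2). The lowest FLAG-SMN array exceeded the highest control array, and the log2 difference was 0.61 (SE 0.18; 95% confidence interval 0.19 to 1.03; 1.52-fold; limma adjusted p = 0.287). With 1 array left out it stayed between 0.51 and 0.70. Mir99b was at 6.65, 6.53 and 6.25 against 6.11 and 5.84, a difference of 0.50 (SE 0.21; limma adjusted p = 0.468). Mir666 was at 6.88, 6.75 and 7.02 against 6.63 and 6.21, a difference of 0.46 (limma adjusted p = 0.511), or 0.26 without control IP replicate 2.

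The remaining higher members named by the same rule were close to background. Mir152 gave 0.51, Mir23a 0.50, Mir26a-1 0.50, Mir301b 0.43 and Mir130b 0.40 as log2 differences, with limma adjusted p from 0.466 to 0.764. Without FLAG-SMN IP replicate 1, Mir23a gave 0.33, Mir301b 0.19 and Mir130b 0.14, and without control IP replicate 2 Mir23a gave 0.29. Mir26a-1, Mir301b and Mir130b exceeded background in the FLAG-SMN arrays alone, and Mir152 and Mir23a counted as above it only through those arrays. At all 5 the filter thus favoured a positive difference. Mir15b, singled out after its values were seen for the second smallest unadjusted p, was not above background by the rule used. Its values were 4.26, 4.46 and 4.57 in FLAG-SMN IP and 3.43 and 3.74 in control IP, a difference of 0.84 (SE 0.20; limma adjusted p = 0.219). In FLAG-SMN IP replicate 1 its value was below background and in both control arrays it was well below, so no fold is given.

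**Figure D4:**
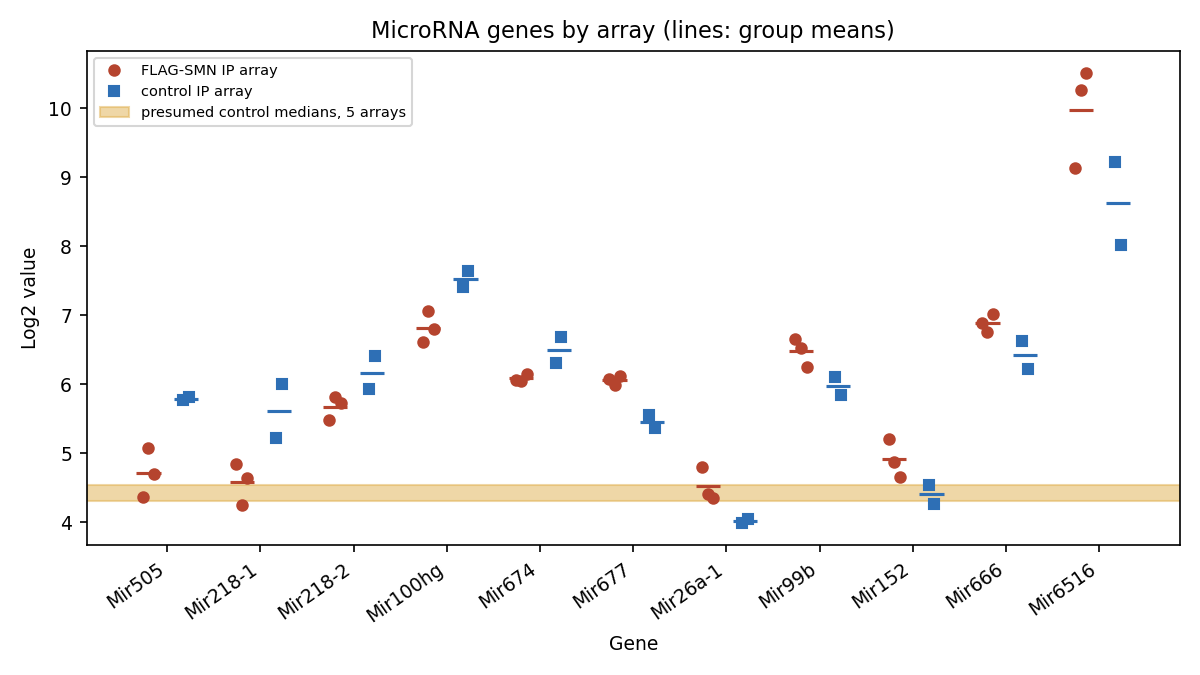
Log2 value on each array for 11 microRNA genes (circles, 3 FLAG-SMN IP arrays; squares, 2 control IP arrays; lines, group means), with the band of the 5 presumed control medians. The groups are apart in all but Mir6516, a condition under which the first 10 were chosen, and Mir505, Mir218-1, Mir26a-1 and Mir152 reach into or near the background band.

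The miR-17-92 cluster makes several microRNAs from 1 primary transcript and is known for promoting cell proliferation. It and its paralogous clusters were represented by 13 genes, of which 3 were above background. At an unadjusted p under 0.05, 2 were higher and 0 lower, with 0 past the adjusted threshold and a median difference of 0.11. The shares over all probe sets were 4.14% higher and 6.31% lower, and both genes lie among those not above background, where 1.73% had such a p in either direction. The 5p arms of Mir17, Mir20a, Mir93 and Mir106b share a seed, and Mir18 and Mir19a of the same primary transcript as Mir17 have other seeds. They are shown to set the shared seed beside the differing values.
mmu-miR-17-5p: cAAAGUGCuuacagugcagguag
mmu-miR-20a-5p: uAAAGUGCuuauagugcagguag
mmu-miR-93-5p: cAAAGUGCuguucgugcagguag
mmu-miR-106b-5p: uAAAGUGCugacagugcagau
mmu-miR-18a-5p: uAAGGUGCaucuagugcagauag
mmu-miR-19a-3p: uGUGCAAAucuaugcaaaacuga

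All 5 measured genes within 10 kb of each other at Mir17 had positive differences, namely Mir17 (0.098), Mir18 (0.88), Mir19a (0.49), Mir20a (0.58) and Mir19b-1 (0.18). Of these 5, 0 were above background by the rule, and Mir17hg, the host transcript, gave -0.57 (limma adjusted p = 0.572). Mir18 was at 4.36, 5.80 and 5.67 in FLAG-SMN IP and 4.60 and 4.19 in control IP, with replicate 1 between the control arrays. Over all 5 arrays its difference was 0.88 (SE 0.44; limma adjusted p = 0.577). Without FLAG-SMN IP replicate 1 it was 1.34 (SE 0.22; limma adjusted p = 0.0413), the 1 call among microRNA genes in any alternative, in a fit that called 350 probe sets in all. Mir20a was at 3.38, 3.12 and 3.11 against 2.78 and 2.46, and Mir19a at 2.78, 3.20 and 2.85 against 2.47 and 2.44, below background on every array. Within the shared seed, Mir93 gave -0.038 and Mir106b 0.30.

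The let-7 family, known for restraining proliferation and for its block by Lin28 proteins, held 10 genes. Of these, 2 were above background (Mirlet7e and Mirlet7i), and 0 had an unadjusted p under 0.05. Such a p was found at 10.4% of all probe sets and at 1.73% of those not above background. The median log2 difference was 0.016, from -0.45 for Mirlet7d to 0.34 for Mirlet7e. Mirlet7e, the neighbour of Mir99b, was at 5.51, 6.40 and 6.10 in FLAG-SMN IP and 5.70 and 5.63 in control IP, with replicate 1 below both control arrays. Mirlet7a-1 differed by -0.074 and was below background on all arrays. Its 5p arm carries the family's seed, which RefSeq gives for 9 of these genes.
mmu-let-7a-5p: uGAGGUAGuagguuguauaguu

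MicroRNAs of neurons numbered 22 genes, 10 above background, with a median difference of -0.018. At an unadjusted p under 0.05, 1 gene (Mir218-1, 4.55% of the 22) was lower and 0 were higher. Over all probe sets 6.31% were lower and 4.14% higher. Mir375, found in endocrine cells and in motor neuron development, was at 6.31, 5.69 and 6.09 in FLAG-SMN IP and 6.26 and 5.68 in control IP, a difference of 0.060 (limma adjusted p = 0.989). Mir132, an activity-regulated microRNA, differed by -0.058 (limma adjusted p = 0.993), and control IP replicates 1 and 2 were at 5.23 and 4.12. Mir9-1 was below background on all arrays and differed by -0.24. Of 19 microRNA genes reported in motor neuron disease or its models, 5 were above background. The 1 with an unadjusted p under 0.05 (5.26%) was Mir218-1, the same gene as in the neuronal list. In that list the muscle microRNA gene Mir206 (difference 0.21) and the sensory gene Mir183 (0.26) were below background on all 5 arrays.

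The imprinted Dlk1-Dio3 cluster, which is expressed in brain, was the largest group with 40 genes. Of these, 12 were above background and 0 had an unadjusted p under 0.05 in either direction, with a median difference of 0.049 and a range from -0.26 to 0.46. Such a p was found at 10.4% of all probe sets and at 1.73% of those not above background. The groups did not overlap at 9 of the 40 genes (22.5%), against 25.3% of all probe sets. Its brightest members, Mir341 (mean log2 level 7.01), Mir667 (6.98) and Mir673 (6.80), have hairpins of 59.4%, 62.0% and 61.5% GC. Within 1 run of 30 neighbouring genes from Mir379 to Mir369, which RefSeq places within 10 kb of one another in turn, mean levels went from 1.99 to 6.98, and 5 genes were above background. Smaller groups were dim: 0 of 5 genes of the stem cell cluster of Mir302 and Mir367, 0 of 5 of the Sfmbt2 cluster family and 2 of 11 of the X chromosome clusters were above background. In these 3 groups 0 genes had an unadjusted p under 0.05, beside the same shares over all probe sets. The groups of arrays did not overlap at 4 of the 11 X chromosome genes (36.4%) and at 0 genes of the other groups. The near-identical repeats of the Sfmbt2 family make its single members uncertain.

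Of 12 clusters with at least 3 measured genes, 3 had every gene above background. Mir23a, Mir27a and Mir24-2 lie together and gave differences of 0.50, 0.25 and 0.26, each without overlap of the groups (as at 25.3% of all probe sets and 31.0% of those above background) and none with an unadjusted p under 0.05 (limma adjusted p from 0.577 to 0.777). Mir27a was at 6.06, 5.83 and 5.83 in FLAG-SMN IP and 5.72 and 5.60 in control IP. Mir25, Mir93 and Mir106b gave -0.032, -0.038 and 0.30, with overlapping groups. Mir99b, Mirlet7e and Mir125a gave 0.50, 0.34 and -0.030.

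Many microRNA genes lie inside other genes. RefSeq placed 131 of the 296 in a protein-coding or long non-coding gene of the same strand, and 96 of these had a host with a probe set of its own, in 75 distinct hosts. The hosts were brighter than the microRNA gene in 80 of 96 cases, though the probes of the 2 genes differ and levels between them are not comparable per length. By unadjusted p under 0.05, 1 of the 75 hosts was higher and 12 were lower, and 0 passed the adjusted threshold. Among the 96 microRNA genes inside them 3 were higher and 2 lower. Over 19230 protein-coding and long non-coding genes 3.14% were higher and 7.41% lower on that criterion. The signs of gene and host matched in 50 of 96 pairs, and the differences had r = 0.12 across pairs that share arrays and in part hosts.

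Slit2, an axon guidance ligand that spans Mir218-1, had log2 values of 7.34, 8.54 and 8.60 in FLAG-SMN IP and 8.92 and 9.75 in control IP. Its difference of -1.17 (SE 0.44; limma adjusted p = 0.417) was close in size to the -1.03 of Mir218-1. Slit3, which spans Mir218-2, gave -0.24 with overlapping groups. Atp5b, the gene of an ATP synthase subunit that spans Mir677, gave -0.18 (SE 0.17) where Mir677 gave 0.61. Clcn5, a chloride transporter gene that spans Mir188, Mir362, Mir500, Mir501 and Mir532, gave -0.81 (SE 0.21; limma adjusted p = 0.238), at 5.92, 6.10 and 5.89 against 6.57 and 7.0. The 5 microRNA genes within it gave differences from -0.066 to 0.31. The difference between a microRNA gene and its host was not itself tested.

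**Figure D5:**
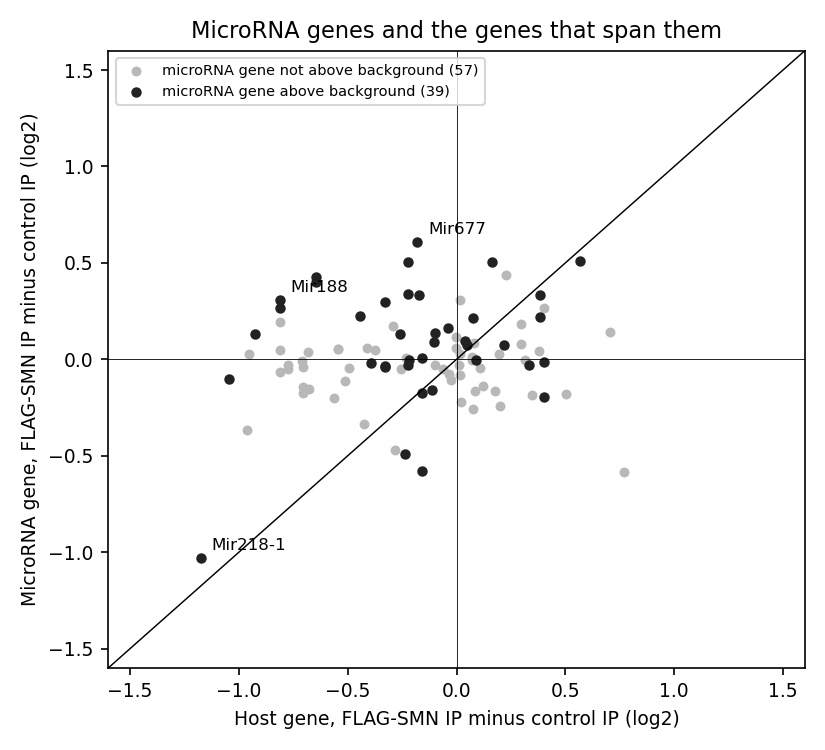
Log2 difference, FLAG-SMN IP minus control IP, of 96 microRNA genes (vertical axis) against that of the host gene that spans them (horizontal axis), with the line of equal differences. Hosts spread from -1.17 to 0.77 while most microRNA genes stay near 0, and Mir218-1 is the pair with both differences below -1.

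Genes of the microRNA pathway lay above background more often than the microRNA genes, and 25 of the 29 listed exceeded the stricter background as well. All 29 of the listed protein genes exceeded background on all 5 arrays, of which 5 (1 higher, 4 lower) had an unadjusted p under 0.05 (17.2%, against 15.4% of the probe sets above background), with 0 past the adjusted threshold and a median log2 difference of -0.19. The RNase gene Drosha was at 7.60, 8.05 and 8.09 in FLAG-SMN IP and 8.59 and 8.80 in control IP, a difference of -0.78 (SE 0.22; limma adjusted p = 0.278). Tnrc6c, a GW182 protein gene of the silencing complex, was at 7.48, 7.54 and 7.77 against 8.26 and 8.43, a difference of -0.75 (SE 0.19; limma adjusted p = 0.234). At both genes all FLAG-SMN arrays were below both control arrays. The groups did not overlap at 14 of the 29 genes (4 higher, 10 lower) and at 31.0% of all probe sets above background.

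The uridylating enzyme gene Tut4 gave -0.54 (limma adjusted p = 0.32) and Lin28b, whose protein blocks let-7 processing, -0.65 (limma adjusted p = 0.442). On the other side stood Prkra, a Dicer partner gene, with 0.54 (limma adjusted p = 0.407). Dgcr8 gave -0.21, Dicer1 -0.50 and Ago2 -0.32, none past an unadjusted p of 0.05. Of the genes of the SMN complex tied to Argonaute, Gemin4 was at 6.33, 6.25 and 6.38 in FLAG-SMN IP and 6.33 and 6.34 in control IP, a difference of -0.022. Ddx20 differed by -0.14, with control IP replicates 1 and 2 at 5.93 and 6.98 on either side of the FLAG-SMN arrays.

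Facts of the whole set bear on these values. FLAG-SMN IP replicate 1 stood apart, with Pearson r = 0.964 and 0.968 to replicates 2 and 3 over all probe sets, where those had r = 0.989 with each other. Over the 300 microRNA genes replicate 1 correlated best with control IP replicate 1 (r = 0.974). Of 17 marker genes measured, the neuronal and motor neuron genes Tubb3, Snap25, Nefl, Nefm, Isl1 and Slc18a3 were above background on all arrays, Chat only on some, and Mnx1 and Stmn2 did not count as above it. The noradrenergic genes Hand2 (mean log2 level 9.60), Gata3, Dbh and Th were above background on all arrays. Of markers of other cells, the myelin gene Mbp (mean log2 level 5.17) was above background on all arrays, and Gfap, Aif1 and Ptprc did not count as above it. The largest marker differences were -2.23 for Dbh, -2.14 for Snap25 and -1.94 for Th (limma adjusted p from 0.0957 to 0.131), and their part in the results above was not tested. The labels do not say whether replicates are separate cultures, and p-values therefore reflect the spread among these arrays, possibly technical.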

How the data were processed

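The deposited values are log2 values for 34760 probe sets on 5 single-colour arrays, made by RMA according to the submitters' processing notes, which give no version here. The files mark no control probe sets, so the 6573 whose IDs precede every annotated ID served as presumed controls, and the other 28187 were tested. Differences came from lmFit and eBayes of limma 3.58.1 (R 4.3.3), 2-sided and without a block, adjusted by Benjamini-Hochberg over all 28187 probe sets at 0.05. Precision is limited by the number of arrays. The fit was tested on simulated data. Symbols came from the platform annotation, and all 300 genes matched the RefSeq gene table by gene ID, with 0 symbols changed. RefSeq positions are on GRCm38.p6, and the array files name no build. Named genes were the 8 largest differences each way among members above background whose groups did not overlap (6 existed on the lower side), the 8 brightest, 2 per list by unadjusted p, and a fixed set. Other genes named (cluster neighbours, hosts, Mir15b, Mir18, Mir212, Mir190a, Mir673 and Lin28b among them) were chosen after their values were seen. Members, lists and tests were chosen with earlier results of these data known. Alternatives are given in the closing section. Figures used matplotlib 3.10.9.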

Additional observations from a re-analysis of the deposited data

How the results depend on the processing

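With 12 other fits, microRNA genes past the adjusted threshold stayed at 0 except without FLAG-SMN IP replicate 1, where 1 gene (Mir18) passed, so that leaving out 1 array gave 0 to 1. Over all probe sets 4 were called higher and 5 lower. Both counts became 0 with cyclic loess scaling, with the presumed controls included and with the replicate number as a block. They became 26 and 60 with array weights and 13 and 16 with brighter probe sets only, and trend and robust moderation gave 8 lower. Leaving out 1 array gave 0 to 159 higher and 0 to 191 lower, the upper values without FLAG-SMN IP replicate 1 and 0 without any other. The 7 microRNA genes higher at an unadjusted p under 0.05 became 4 with the presumed controls included and 4 with the replicate block. They became 4 when only those above background were counted and 2 with brighter probe sets only. Without FLAG-SMN IP replicates 1, 2 and 3 in turn they became 9, 3 and 5, and the 4 lower became 6, 3 and 5. Over all probe sets the share at such a p in either direction moved as well, from 10.4% in the main fit. It was 9.67% with the presumed controls included, 9.04% with the replicate block and 12.6% with brighter probe sets only. Without FLAG-SMN IP replicates 1, 2 and 3 in turn it was 13.2%, 8.73% and 8.1%. The median difference of 0.022 ran from -0.042 to 0.097 without 1 array. It was 0.094 when only genes above background were counted and 0.092 with brighter probe sets only. The 5 pathway genes at an unadjusted p under 0.05 became 2 with the replicate block and 2 with trend and robust moderation (9.2% of all probe sets in that fit). Without FLAG-SMN IP replicates 1, 2 and 3 in turn they became 6, 3 and 3. The 100 genes above background became 54 with the median of all probe sets and 29 with the 75th percentile. The cause of these changes was not tested.

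Of 561 values of 48 named genes under the alternatives, 545 kept their direction. Including the presumed controls, trend and robust moderation, and testing brighter probe sets only leave each difference as it is. Genes named because their groups did not overlap cannot turn when 1 array is left out. Much of this count was therefore fixed in advance. The sign turned for Mir346 with array weights (-0.044) and for Mir132 with the replicate block (0.085). Without 1 array the ranges that crossed 0 were -0.20 to 1.00 for Mir692-1, -0.37 to 0.64 for Mir346, -0.060 to 0.51 for Mir667, -0.34 to 0.53 for Mir328, -0.61 to 0.49 for Mir132, -0.23 to 0.35 for Mir375, -0.15 to 0.0041 for Mirlet7a-1, -0.058 to 0.28 for Mir297b, -0.027 to 0.29 for Mir302c, -0.051 to 0.013 for Gemin4 and -0.66 to 0.38 for Ddx20. Same-numbered arrays of the 2 groups deviated from their group means with r = 0.13 for number 1 and r = -0.20 for number 2. The deviations of 2 control arrays mirror each other, so these r are not separate checks and cannot decide on pairing. Over microRNA genes with a hairpin, the number 1 arrays had the steepest GC slopes of their groups (1.42 and 1.33 log2 units per 10% GC). The main fit did not take the numbers as pairs, and pairing was not tested.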
